A study of Mus musculus with 4 samples.

Results

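The annexins examined here are the 10 mouse genes Anxa1, Anxa2, Anxa3, Anxa4, Anxa5, Anxa6, Anxa7, Anxa8, Anxa10 and Anxa11, of 18193 genes named on the array. They were chosen by family membership, and all 22 probe sets that the array's annotation ties to them were taken. A probe set is a group of short probes for one transcript, and its signal is the brightness left by labelled RNA. The samples were cultures of MC3T3-E1, a preosteoblast line whose labels name the skull cap (calvaria) of newborn C57BL/6 mice as its source. All 4 groups grew in MEM α with 10% fetal bovine serum, in normal medium without additions for 3 or for 6 days, or in osteogenic medium for 3 or for 6 days. Osteogenic medium also held 150 µM ascorbic acid 2-phosphate, which supports collagen synthesis, and 10 mM beta-glycerophosphate, a source of phosphate for mineral. There was 1 array per group, from a single cell line, so no difference between 2 arrays has a replicate error or a test, and "higher" and "lower" describe single arrays.

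Annexins are cytosolic proteins that attach to membranes rich in acidic phospholipids when calcium is present. Several of them, annexins A2, A5 and A6 among them, are abundant in matrix vesicles, the small membrane sacs that osteoblasts and chondrocytes shed and in which the first mineral crystals form. Others serve in membrane repair, vesicle traffic, the control of inflammation, and the activation of plasminogen at the cell surface.

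Anxa8 was the annexin in which the media differed most, by 17.4-fold at day 6 on the probe set that stands for the gene. On such probe sets, Anxa3, Anxa5 and Anxa7 had modestly more signal in osteogenic medium at both days, with log2 differences from 0.24 to 0.82. The lowest of these, of Anxa5 at day 6, was inside the probe set error given below. At day 6 the other Anxa7 probe sets had 0.01 and -0.08. Anxa6 had less signal in osteogenic medium, with -0.26 at day 3 and -0.70 at day 6. Anxa1 and Anxa2, both bright on every array, lay within 0.14 of zero at both days. Anxa4 lay on opposite sides of zero at the 2 days, and Anxa10 was not above the floor on any array.

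The floor was a signal of 57.8, the median of all probe sets, and stands in for the detection calls that the table lacks. Of the 22 annexin probe sets, 17 were above it on all 4 arrays, 2 on some and 3 on none. Each of 9 annexins had at least 1 probe set of its own. The only probe set of Anxa11 is annotated to 2 transcribed pseudogenes as well, Gm2260 and Gm2274, so its signal cannot be given to Anxa11 alone and it entered no count of genes. Above the floor were 8 annexins, and the probe set of highest mean log2 signal stands for each. As a yardstick for the error of one probe set, paired probe sets for a gene differed with an SD, per probe set, of 0.29 for a log2 medium difference at day 3 and 0.28 at day 6, over 4761 genes. That yardstick holds probe error only, not the spread between cultures.

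The arrays were alike in most respects. Across probe sets, any pair of arrays had a Pearson's r of 0.980 to 0.992, on log2 values with those under the floor set to it. The share of probe sets above the floor was 49.4% to 50.4%. A floor at the pooled median keeps that share near 50% by construction. The 3′ to 5′ signal ratio of the control for Gapdh was 0.756 to 0.769. The control probe set at the 5′ side of the small ribosomal subunit's RNA read 746 on the osteogenic day 6 array and 5202 to 9162 on the others, which touches every difference that uses that array, and its part in them was not tested. Of 7 osteoblast markers, 5 were analysed here and all 5 were above the floor on all arrays, among them Sp7, the osteoblast transcription factor (574 to 924), and Col1a1 (49649 to 60664). Of the markers of other cells, 1 of 5 for leukocytes, 1 of 4 for endothelium, 0 of 3 analysed for adipocytes, 2 of 4 for cartilage, 2 of 4 for skeletal muscle and 5 of 7 for epithelium were above the floor on at least 1 array. In RNA from whole cultures, more cells of a type and more RNA per cell cannot be told apart.

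**Figure D1:**
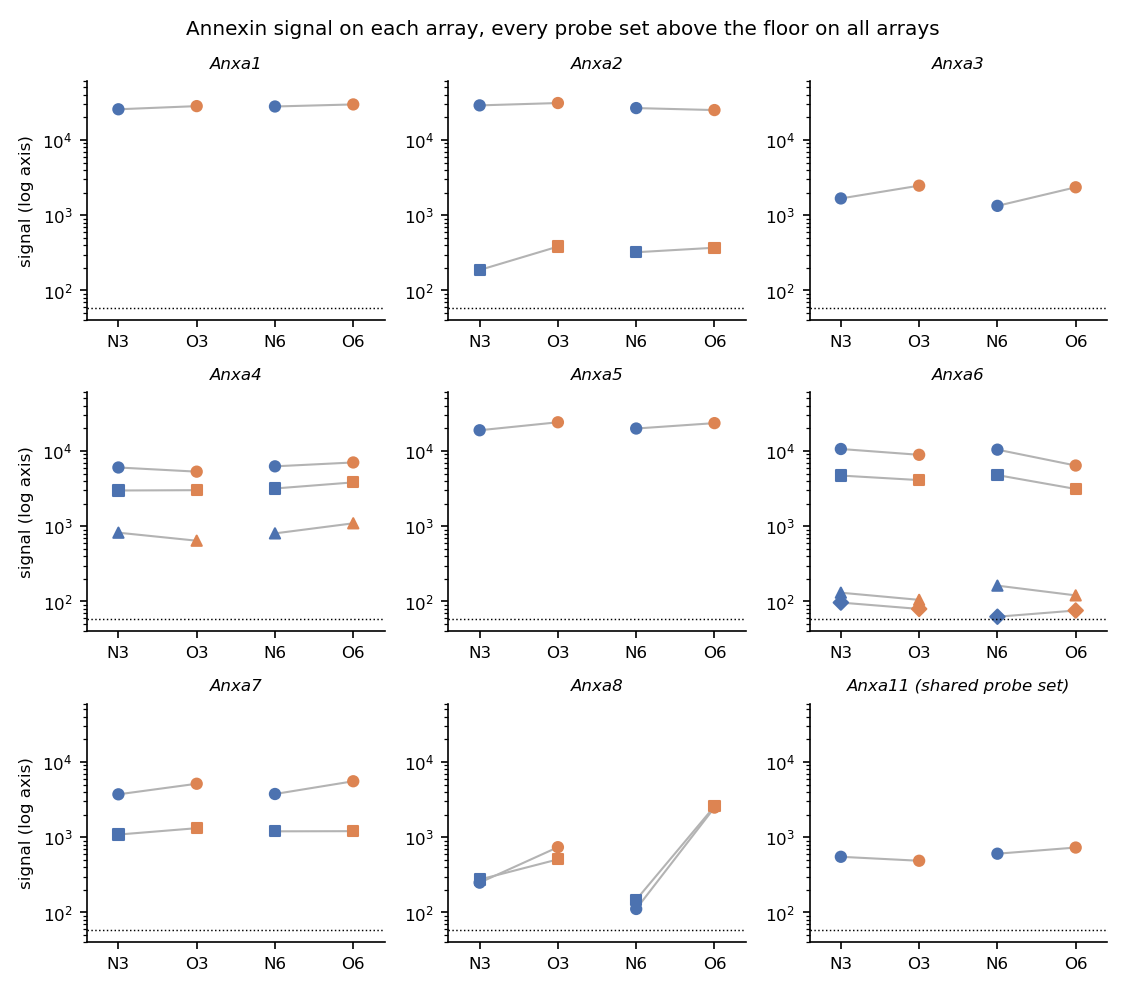
Signal (log axis) of each annexin probe set above the floor on all 4 arrays. N3 and N6 are normal medium at day 3 and day 6 (blue), O3 and O6 are osteogenic medium (orange), each point is 1 array, marker shapes separate probe sets of a gene, grey lines join the media of a day, and the dotted line is the floor of 57.8. The Anxa8 probe sets reach 2479 and 2574 on the osteogenic day 6 array, while no other probe set differs by 2-fold between media apart from the dim Anxa2 probe set at day 3.

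Among the annexins known from matrix vesicles, Anxa5, whose protein binds phosphatidylserine and covers membranes with ordered lattices, had signals of 18888 in normal and 24121 in osteogenic medium at day 3, and 19920 and 23496 at day 6. Both osteogenic values lay above both normal values. The log2 medium differences were 0.35 at day 3 and 0.24 at day 6, or 1.28-fold and 1.18-fold. The day 3 value exceeds the probe error of 0.29 and the day 6 value does not exceed that of 0.28. Anxa5 had a single probe set, so no other probes speak to this difference.

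Anxa6, which encodes a long annexin whose core is duplicated, had signals of 10644 in normal and 8910 in osteogenic medium at day 3. At day 6 they were 10433 and 6416. The normal arrays were nearly equal, both osteogenic arrays were below them, and the day 6 osteogenic array was the lowest. The day 6 difference, -0.70 or 1.63-fold, was 2.50 times the probe error, and 14.8% of all measured genes lay at least as far from zero. A second bright probe set of Anxa6 had log2 differences of -0.20 and -0.61. The other pair of Anxa6 probe sets, whose signals were between 62.7 and 162, had -0.32 and -0.28 at day 3 and -0.43 and 0.27 at day 6. The direction at day 6 was thus shared by 3 of 4 probe sets, and the exception was the probe set nearest to the floor.

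Anxa2, whose protein pairs with S100a10 and gathers plasminogen and its activators at the cell surface, had signals of 28882 and 31038 in normal and osteogenic medium at day 3 and of 26599 and 25024 at day 6. The groups interleaved, with log2 medium differences of 0.10 and -0.09, both inside the probe error. A dim second probe set of Anxa2 disagreed at day 3, at 187 in normal and 383 in osteogenic medium, a log2 difference of 1.03, and at day 6 had 322 and 370. Its name carries the array maker's mark for probes that can also bind other transcripts. The third probe set of Anxa2 was not above the floor on any array.

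Anxa1, known as lipocortin, is an inhibitor of inflammation released by many cells. Its bright probe set had 25638 and 28244 at day 3 and 27922 and 29742 at day 6, normal medium first. The osteogenic value was the higher one of each day, by log2 differences of 0.14 and 0.09, both inside the probe error. Its other probe set was above the floor on the normal day 3 array alone, at 69.2. The highest signal deposited for any probe set was 67044 to 81516 per array, and whether the bright signals of Anxa1, Anxa2 and Anxa5 remain proportional to RNA was not tested.

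Anxa3, a membrane-binding annexin known from neutrophils and placenta, had signals of 1673 in normal and 2475 in osteogenic medium at day 3 and of 1333 and 2354 at day 6. Both osteogenic arrays lay above both normal arrays. The log2 differences were 0.56 and 0.82, the latter 2.93 times the probe error, and 10.9% of all measured genes were at least as far from zero at day 6. After Anxa8, this was the widest day 6 difference among the annexins, and it rests on 1 probe set.

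Anxa7, or synexin, which promotes calcium-dependent fusion of secretory vesicles, had signals of 3722 and 5144 at day 3 and of 3759 and 5553 at day 6, normal medium first. The osteogenic arrays were higher at both days by log2 differences of 0.47 and 0.56. Its second bright probe set gave 1087 and 1320 at day 3 and 1199 and 1205 at day 6, differences of 0.28 and 0.01. The third probe set, above the floor on 2 arrays, gave 0.64 and -0.08 with its dimmer values set to the floor. The probe sets of Anxa7 therefore shared a direction at day 3 and not at day 6.

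Anxa4, an annexin abundant in secretory epithelia, had signals of 6043 and 5320 at day 3 and of 6260 and 7048 at day 6, normal medium first, with log2 differences of -0.18 and 0.17. Across its 3 probe sets the difference ran from -0.35 to 0.01 at day 3 and from 0.17 to 0.45 at day 6. All 3 probe sets had a higher medium difference at day 6 than at day 3, by 0.25 to 0.80. The dimmest of the 3, which gave -0.35, 0.45 and 0.80, carries in its name the same mark as the dim Anxa2 probe set. The probe set shared by Anxa11 and its pseudogenes had a like pattern, at 549.9 and 487 on day 3 and 605 and 730 on day 6, with log2 differences of -0.17 and 0.27. Anxa11 encodes a partner of the calcium sensor Pdcd6.

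Anxa10, an annexin of the stomach lining, had signals of 2.52 to 23.6 on its brighter probe set, below the floor on every array, so no fold is given. The family's other members on the array, Anxa9 and Anxa13, were also dim. Anxa9 was not above the floor on any array, and Anxa13, an intestinal annexin, was just above it on both day 6 arrays, at 63.9 in normal and 71.6 in osteogenic medium.

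**Figure D2:**
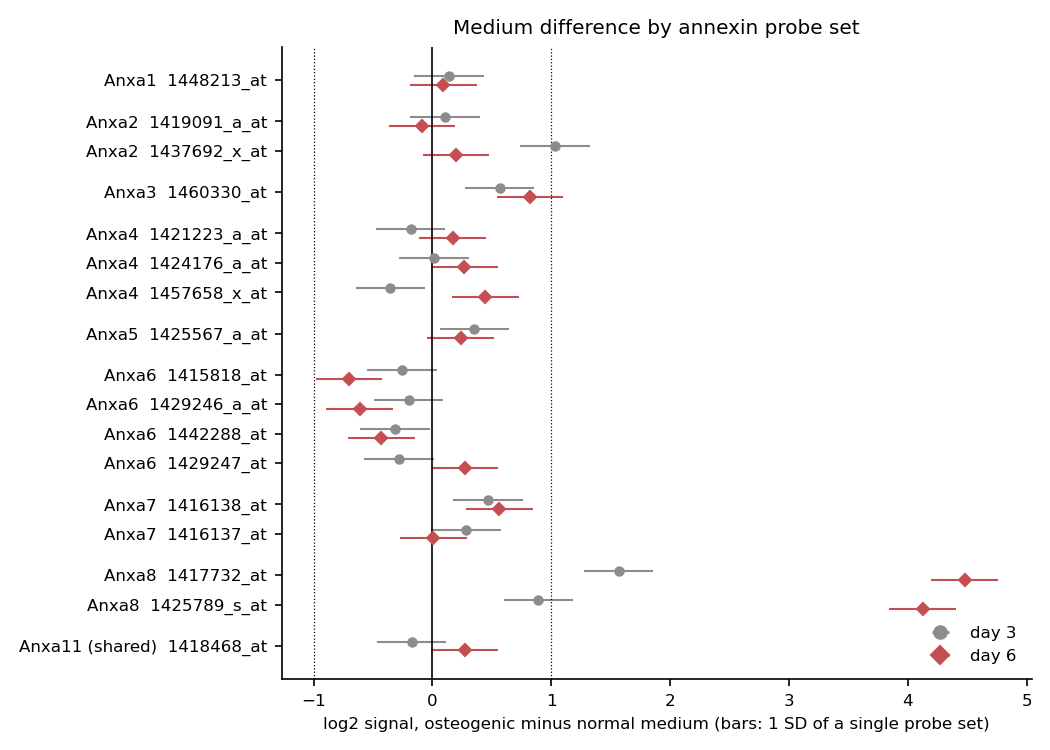
Log2 difference in signal between osteogenic and normal medium for each annexin probe set above the floor on all arrays, at day 3 (grey circles) and day 6 (red diamonds), with bars of 1 SD of a single probe set (0.29 and 0.28) and dotted lines at 2-fold. Both Anxa8 probe sets lie beyond 4 at day 6, the brightest Anxa6 probe set lies at -0.70, and both Anxa1 bars cross zero.

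Anxa8 encodes an annexin known mainly from skin and other stratified epithelia, and its pattern over the arrays was unlike those described so far. The probe set that stands for the gene had signals of 274 in normal and 508 in osteogenic medium at day 3. At day 6 they were 148 and 2574. The other probe set had 249 and 738 at day 3 and 111 and 2479 at day 6. The first one's name carries the array maker's mark for probes shared by several transcripts, and the other's carries no such mark. Both probe sets gave the same order, with osteogenic day 6 highest, then osteogenic day 3, normal day 3 and normal day 6. Each neighbouring pair in that order was further apart than the probe error on both probe sets.

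At day 3 the Anxa8 medium difference was 1.86-fold on the first probe set, just under 2-fold, and 2.96-fold on the second. At day 6 it was 17.4-fold and 22.3-fold, log2 differences of 4.12 and 4.48. Only 3 of 11888 measured genes had a higher value than Anxa8 at day 6, while at day 3 its place was 321 of 11835. Between days, Anxa8 was 1.86-fold lower at day 6 than at day 3 in normal medium and 5.06-fold higher in osteogenic medium, and the second probe set gave 2.24-fold lower and 3.36-fold higher. The widening of the medium difference from day 3 to day 6 was 3.23 and 2.91 on the log2 scale, and it draws on a lower normal value as well as a higher osteogenic one.

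The 250 bases before the annotated start of Anxa8 are shown because this gene carries the widest difference. Those of Anxa5, a bright annexin that differed by less than 2-fold between media at both days, are shown for contrast. Both come from RefSeq on build GRCm38.p6, on which Anxa8 lies on the plus strand at chr14:34085729-34085978 and Anxa5 on the minus strand at chr3:36475888-36476137. They are written 5′ to 3′ in the direction of the gene, and capitals mark a motif match.
Anxa8: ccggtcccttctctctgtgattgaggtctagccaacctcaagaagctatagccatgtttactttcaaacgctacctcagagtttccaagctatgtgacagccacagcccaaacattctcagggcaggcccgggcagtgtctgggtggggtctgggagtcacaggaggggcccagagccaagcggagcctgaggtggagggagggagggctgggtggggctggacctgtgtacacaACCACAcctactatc
Anxa5: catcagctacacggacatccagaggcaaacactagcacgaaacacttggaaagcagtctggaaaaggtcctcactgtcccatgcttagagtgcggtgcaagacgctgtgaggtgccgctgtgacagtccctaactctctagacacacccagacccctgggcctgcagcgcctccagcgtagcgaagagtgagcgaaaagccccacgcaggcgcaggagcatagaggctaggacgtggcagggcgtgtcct
Searched on both strands were the TATA box as TATAAA, the AP-1 site as TGACTCA, the RUNX site as TGTGGT, the GC box as GGGCGG and a homeodomain site as TAATTG. The Anxa8 window held 1 match, to the RUNX site on the reverse strand, beginning 15 bases before the start, and the Anxa5 window held 0. Of 32851 windows of this length, 14.0% held the RUNX site, 12.4% the TATA box, 4.46% the AP-1 site, 32.7% the GC box and 7.17% the homeodomain site. Among the other annexins, Anxa1 had a TATA box match beginning 32 bases before its start, and Anxa10, below the floor on all arrays, had one at the same place and 2 AP-1 matches. The Anxa2 window held 1 match to the TATA box, 1 to the AP-1 site and 3 to the GC box, and windows of Anxa7 and Anxa11 held GC box matches. A match describes letters in a window and is not evidence of a factor's binding. Windows were found for 8 of the 10 annexins, not for Anxa3 and Anxa6.

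The 5 genes whose log2 signals, centred over the 4 arrays, lay nearest to those of Anxa8 were Srpx2, Col11a2, Avil, Prkg2 and Wdr95. The likeness is a root mean square distance over 4 arrays, from 0.27 for Srpx2 to 0.34 for Wdr95, so it mainly reflects the osteogenic day 6 array. Srpx2, a secreted sushi-repeat protein, had 161, 326, 117 and 1225 in the order normal and osteogenic at day 3, then normal and osteogenic at day 6. Prkg2, a cGMP-dependent protein kinase, had 613, 2082, 398 and 7969 in the same order. Both were thus lower at day 6 than at day 3 in normal medium and higher in osteogenic medium, as Anxa8 was. Col11a2, Avil and Wdr95 were below the floor on the normal day 6 array, so their day 6 medium differences are lower bounds. The second Anxa8 probe set shared 3 of these 5 genes, Srpx2, Prkg2 and Wdr95, with Mlip and Klhl30 in place of the others.

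**Figure D3:**
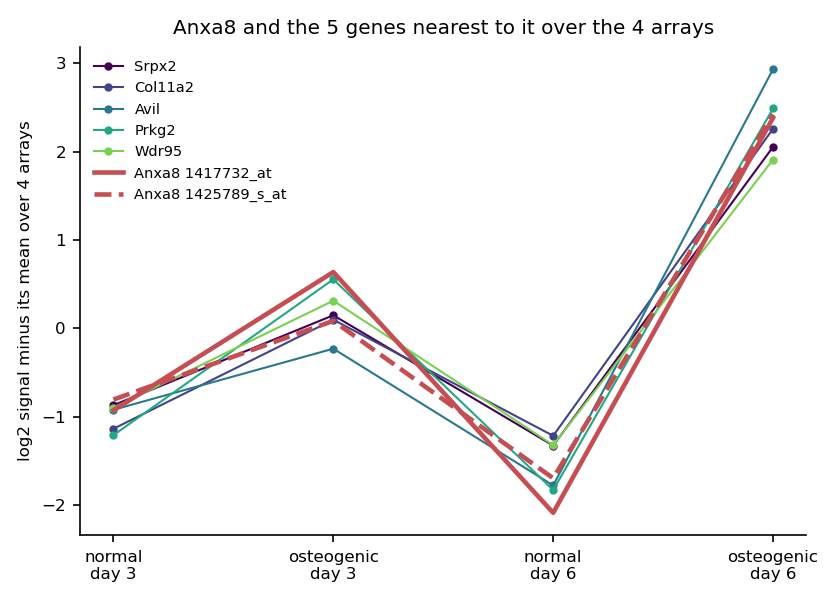
Log2 signal minus its mean over the 4 arrays for both Anxa8 probe sets (thick red lines) and the 5 genes nearest to the Anxa8 pattern (thin lines), with values below the floor set to it; lines join the arrays for legibility. All lines peak on the osteogenic day 6 array and are lowest on the normal day 6 array.

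Markers of other cells were set beside Anxa8. Of the 7 epithelial and keratinocyte markers, 5 were measured at day 3 and 4 at day 6. Krt14 and Cdh1 were past 2-fold at both days, beside 3.52% and 6.88% of all measured genes. Krt14 had log2 medium differences of 1.44 and 2.11, and Cdh1, or E-cadherin, had 1.61 and 2.51. Epcam went the other way at day 3, at -0.66 and then 0.71. The probe sets that stand for Krt14 and Epcam carry the same mark as the dim Anxa2 probe set. Of 5 measured members 3 were above and 2 below zero at day 3, and 4 of 4 above at day 6. Among all measured genes, 50.96% and 51.2% were above zero at these days. Krt5 and Krt18 were not above the floor on any array, and Krt8 was above it on the day 3 arrays alone (-0.01). The summed signal of the list was 2321 and 2205 in normal and 3217 and 3143 in osteogenic medium, most of it from Trp63, whose probe sets disagreed in sign. Of other markers, the cartilage collagen gene Col2a1 had log2 medium differences of 1.12 and 2.28 and the muscle gene Des was at least 2.84-fold higher in osteogenic medium at day 6, where its normal-medium value was below the floor, while Acan, Col10a1, Myod1 and Myog were not above the floor on any array. Among osteoblast markers, Ibsp was 11.6-fold higher in osteogenic medium at day 3 and 43.4-fold at day 6, and Dmp1 6.02-fold and 7.85-fold. The part of these markers in the Anxa8 difference was not tested. On the chromosome, the analysed neighbours of Anxa8 that were above the floor on all arrays, Shld2 and Glud1, had day 6 log2 medium differences of -0.53 and 0.06.

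For the family as a whole, 0 of 8 measured annexins passed 2-fold between media at day 3, where 3.52% of 11835 measured genes did. At day 6, 1 of 8 did, Anxa8, against a background of 6.88% of 11888 genes. The median log2 difference of the annexins was 0.25 at day 3 and 0.20 at day 6, beside 0.0091 and 0.012 over all measured genes. Of the 8 annexins, 6 were above zero at each day, and 50.96% and 51.2% of all measured genes were. Anxa1, Anxa3, Anxa5, Anxa7 and Anxa8 were above zero at both days and Anxa6 below at both. So 6 of 8 kept their sign between 2 separate pairs of arrays, as did 62.7% of 11256 genes. Within the probe error lay 4 of 8 annexins at each day, as did 55.6% of all measured genes at day 3 and 50.4% at day 6. Anxa1 was among the 4 at both days, and with averaged probe sets it was at -0.06 at day 3. At day 3, 1 of 8 annexins, Anxa8, lay more than 2 probe errors from zero, as did 15.6% of all measured genes. At day 6, 4 of 8 did (Anxa3, Anxa6, Anxa7 and Anxa8), as did 21.9% of all measured genes. Anxa7 did so narrowly, at 2.01 probe errors, and with the mean over all probe sets of a gene in place of the brightest, Anxa7 (0.16) and Anxa6 (-0.37) did not.

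Over time, 0 of 8 annexins passed 2-fold between day 6 and day 3 in normal medium (background 1.46% of 11723 genes) and 1 of 8, Anxa8, in osteogenic medium (6.26% of 11925). In normal medium, 6 of the 8 lay within the probe error of 0.26, as did 66.1% of all measured genes, and Anxa3 (-0.33) and Anxa8 (-0.89) did not. In osteogenic medium, 4 of the 8 lay within the probe error of 0.29, as did 53.3% of all measured genes, and Anxa6 (-0.47), Anxa2 (-0.31), Anxa4 (0.41) and Anxa8 (2.34) did not. The medium difference itself changed past 2-fold between days for 1 of 8 annexins, again Anxa8, against 7.68% of 11256 genes. These time comparisons share arrays with the medium comparisons and are not independent of them.

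**Figure D4:**
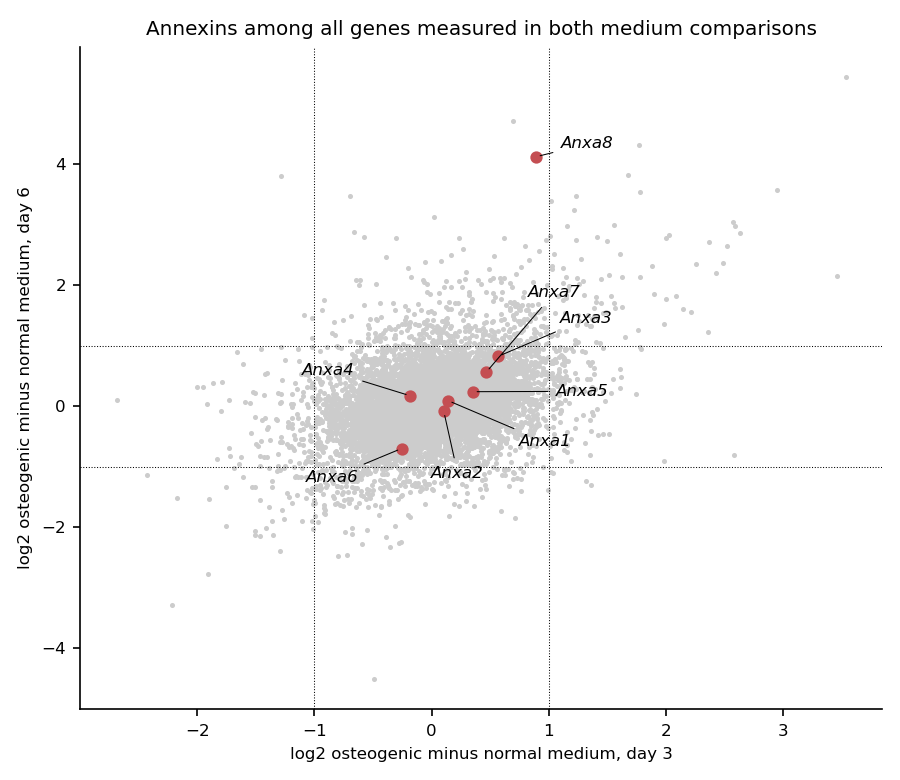
Log2 medium difference at day 3 (horizontal) and day 6 (vertical) for 11256 genes measured in both comparisons (grey points) and the 8 measured annexins (red points), with dotted lines at 2-fold. Anxa8 stands at 0.89 and 4.12, and the other 7 lie inside the central cloud within 2-fold at both days.

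The medium was also tested across both days, in limma's moderated fit of medium and day to the 4 arrays, with 1 residual degree of freedom and Benjamini-Hochberg adjustment over 12467 genes. At an adjusted p of 0.05, 0 annexins and 0 genes passed (0.0% of those tested). At an unadjusted p of 0.05, 3 of 8 annexins (Anxa3, Anxa7 and Anxa8) and 1730 of the 12467 genes did. With each gene's own variance, 0 genes passed the adjusted threshold and 845 of the 12467 passed the unadjusted one. Of the 8 annexins, 0 passed either, Anxa3, Anxa7 and Anxa8 included. The fitted log2 medium effect was 0.69 for Anxa3 (SE 0.18, limma adjusted p = 0.27), with the osteogenic array higher at both days. For Anxa8 it was 2.51 (SE 0.76, limma adjusted p = 0.30), with a residual that holds its unequal differences at the 2 days. For Anxa7 it was 0.51 (SE 0.17, limma adjusted p = 0.32) and for Anxa6 -0.48 (SE 0.20, limma adjusted p = 0.39). The adjusted p of the other 4 annexins was 0.52 to 0.99.

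Genes that work with annexins were followed in 6 lists, whose counts past 2-fold stand beside 3.52% of all measured genes at day 3 and 6.88% at day 6. S100 proteins, small calcium sensors that bind the tails of annexins, had 0 of 7 measured members past 2-fold at day 3 and 1 lower at day 6, with medians of 0.07 and -0.18. S100a10, the partner of annexin A2, had signals of 20748 and 22735 at day 3 and of 20090 and 14825 at day 6, log2 medium differences of 0.13 and -0.44. Its day 6 osteogenic value was the lowest of the 4, and its 3 probe sets shared that sign. The member past 2-fold was S100b (-1.28), at 3773 in normal and 1553 in osteogenic medium at day 6, with 6 of 7 members below zero on a day when 51.2% of all measured genes were above it. S100a6 (-0.14) and S100a4 (-0.18) were among them, both inside the day 6 probe error of 0.28.

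The matrix vesicle list holds genes of phosphate supply and mineral formation, and also the metalloproteinases Mmp2 and Mmp13 and the glycolytic enzymes Pkm and Ldha. Of its 9 measured members, 2 were past 2-fold at day 3 and 3 at day 6, all of them higher, against 3.52% and 6.88% of all measured genes, with medians of -0.08 and 0.68. Alpl, the phosphatase that frees phosphate, was 2.94-fold and 3.25-fold higher at the respective days. Smpd3, a sphingomyelinase needed for mineralisation, was 2.89-fold and 3.54-fold higher, and Slc20a1, a phosphate importer, was 1.22-fold and 4.28-fold higher. None of the vesicle annexins Anxa2, Anxa5 and Anxa6 reached 2-fold on its brightest probe set at either day.

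In the annexin A2 and plasmin list, 1 of 5 measured genes was past 2-fold at day 6, the urokinase receptor gene Plaur at 1.24. At day 3 it was 0 of 3, and the medians were 0.26 at day 6 and 0.04 at day 3. Plau and Plg were measured at day 6 alone, on the osteogenic array near the floor (69.3 and 59.1). The day 6 median is the value of Plau, so the 2 medians cover different genes. Plat, the tissue plasminogen activator, had 0.73 and 0.58. Among membrane repair genes 0 of 9 passed at day 3 and 1 of 10 at day 6, with medians of -0.19 and -0.01. That gene was Dysf, or dysferlin, which works with annexins in resealing torn membranes, at 563 in normal and 275 in osteogenic medium on day 6 (-1.03). Its relative Myof had log2 differences of -0.19 and 0.42. Of the annexin A1 receptor and phospholipase list, Fpr2 was not above the floor on any array. The 1 measured member, Pla2g4a, the cytosolic phospholipase that annexin A1 restrains, was at 0.82 on day 3 and 1.59 on day 6. The remaining calcium-binding genes had 0 members past 2-fold at either day, with medians of -0.21 over 3 and 0.25 over 4, and Sparc at -0.17 and 0.05 and Calr at -0.45 and 0.41.

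**Figure D5:**
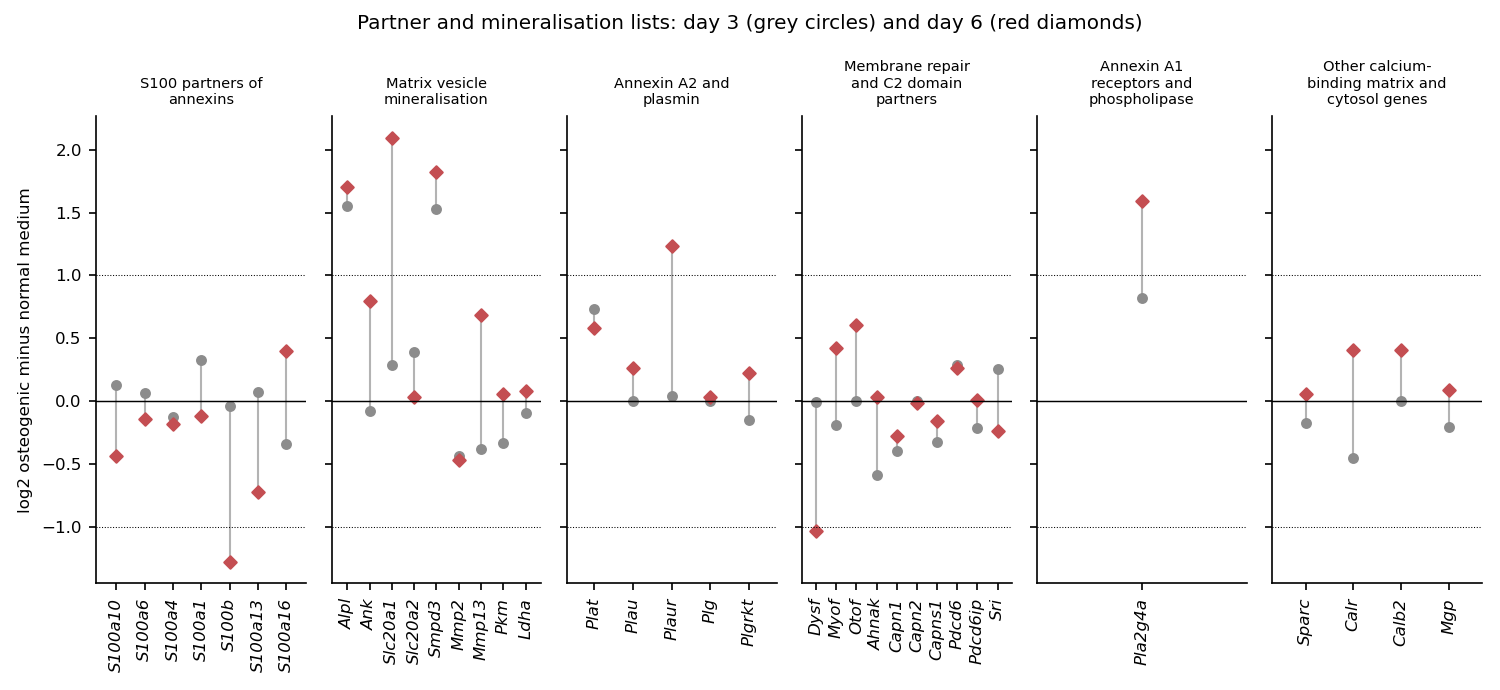
Log2 medium difference at day 3 (grey circles) and day 6 (red diamonds) for the genes of 6 lists above the floor on at least 1 array, with dotted lines at 2-fold. Alpl, Smpd3, Slc20a1, Plaur and Pla2g4a lie above the upper line at day 6, and S100b and Dysf lie below the lower line.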

How the data were processed

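Total RNA from 4 cultures was labelled with biotin and hybridised to Affymetrix Mouse Genome 430 2.0 arrays, per the labels' protocols. The authors deposited 1 linear intensity per probe set and array, 45101 in all, already scaled to a common mean of 500 per array once the lowest and highest 2% were left out. Which software summarised the probes is not given in the sources used here. Names came from GEO's array annotation, matched by Entrez ID to RefSeq.

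Arrays were set to the same 75th percentile, values under the pooled 50th percentile were set to that floor, and log2 was taken (Python 3.11.15). The probe set with the highest mean log2 signal stood for its gene, and a gene counted as measured in a comparison when either of its arrays exceeded the floor. The threshold was 2-fold. The medium was fitted over both days with limma 3.58.1. The fit and the differences were also run on simulated arrays with changes set equal at both days. That run checked only that the fit returned the set change, and held no change that differed between days. Alternatives were 6 other scalings, floors and gene summaries, each gene's own variance, and 1 summary added later. All 10 annexins were named, with list genes past 2-fold and otherwise up to 3 per list, and the 5 genes nearest to any annexin past 2-fold. The members and lists were chosen with earlier results of these data known. The number of arrays limits the precision.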

Additional observations from a re-analysis of the deposited data

Results flagged for a closer look

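Anxa8 was lower at day 6 than at day 3 in normal medium (log2 -0.89) and higher in osteogenic medium (2.34), a difference of 3.23 between the media. Opposite directions were also seen for Anxa5 over time, at 0.08 in normal and -0.04 in osteogenic medium, a difference of -0.11. The medium difference of Anxa2 was 0.10 at day 3 and -0.09 at day 6, a change of -0.19. That of Anxa4 was -0.18 and 0.17, a change of 0.35. With 1 array per group none of these differences between groups was tested. Those of Anxa2, Anxa4 and Anxa5 are within 0.36, the SD of a single probe set for such a change, and that of Anxa8 is 8.98 times as large as it.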

How the results depend on the processing

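No paired analysis was possible because the groups share only 1 replicate number, although the fit of medium and day does compare the media within each day. Of 280 annexin values under the alternatives, 268 moved by no more than the probe error and 270 kept their sign. Much of that was fixed in advance, as both changed floors left every annexin value as it was. Choosing the probe set by mean signal changed Anxa8 alone. Averaging could not change Anxa3 or Anxa5, which have 1 probe set each. The 12 values that moved further all came from averaging probe sets or from choosing the probe set by mean signal. The count past 2-fold became 1, Anxa8, both at day 3 between media and over time in normal medium when probe sets were averaged. It was again 1 in both when the gene's probe set was chosen by mean signal, an alternative chosen after seeing the data. The other counts of annexins, and 0 in the limma fit, were the same under each alternative run. With averaged probe sets Anxa1 had -0.06 and Anxa2 0.57 at day 3, and Anxa2 had 0.06, Anxa7 0.16 and Anxa6 -0.37 at day 6. Counts of all genes past 2-fold moved by over 1.5 times with the floor at the 40th percentile at day 3 (735 against 417), over time in normal medium (426 against 171) and for the change between days (1382 against 864). With the floor at the 60th they were 225, 58 and 545. With a pseudocount of 32 and no filter they were 881, 624 and 2084, with 1260 against 818 at day 6 and 1196 against 747 over time in osteogenic medium. These counts are out of different totals. With no filter all 18193 genes were counted, against 11888 in the main run at day 6 and 11925 over time in osteogenic medium. The genes measured at day 3 were 13748 with the floor at the 40th percentile, 10032 at the 60th and 11835 in the main run. Signals near the floor of 57.8, such as the dimmest Anxa6 probe set, have no detection calls behind them.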
